A study of Mus musculus with 6 samples.

Results

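The 68 genes described here encode the 4 classical families of axon guidance cues and their receptors: semaphorins with plexins and neuropilins, ephrins with Eph receptors, Slits with Robo receptors, and netrins with Dcc and Unc5 receptors. They were picked by a rule on the gene symbol from the 36699 rows of the authors' deposited table, with earlier results of these data known. The set holds 31 genes of the semaphorin system, 22 of the ephrin system and 15 of the Slit and netrin systems. By role, 34 encode ligands and 34 encode receptors. Each gene had 1 row of its own, except that Ntn3 was deposited only in a row shared with Tbc1d24, which the rule leaves out.

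These proteins were named for steering growing axons, and many of them also act in tissues without axons. Semaphorins signal through plexins, mostly with neuropilins as co-receptors for the secreted class, and change the adhesion and cytoskeleton of the responding cell. Ephrins and Eph receptors both sit in the membrane, signal in both directions at contacts between cells, and keep neighbouring cell populations of the early embryo apart. Slits repel cells through Robo receptors, while netrins attract through Dcc and repel through Unc5 receptors.

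RNA was measured in mouse A2Lox.cre embryonic stem (ES) cells, a line built for doxycycline-driven expression of an inserted transgene, here Sp5 with a Flag tag (F-Sp5). All cells had been kept on mouse embryonic fibroblasts, separated from them, and grown in suspension as embryoid bodies, aggregates in which ES cells begin to differentiate, up to day 3. The minus group was 3 libraries without doxycycline, and the plus group was 3 libraries from cells given the drug for 24 hours from day 2. The comparison was made to find genes that Sp5, a zinc-finger transcription factor of the Sp family and target of Wnt signalling, regulates. No group of cells given doxycycline without the transgene was analysed here, so the effects of drug and transgene cannot be told apart. Whether the libraries stem from different cultures, or the line from 1 clone, is not in the labels, and the p-values may therefore measure technical spread only.

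Levels are in FPKM, fragments scaled to transcript length and to mapped fragments, which allows levels to be compared between genes. The authors deposited 1 FPKM value per group, without an error; single libraries were not analysed here. Variation among libraries enters only by way of the q-value of the authors' Cuffdiff test, which was adjusted over all 18537 tested rows. A gene is said to have risen or fallen with doxycycline where q was under 0.05 in the authors' deposited table. A fold is the quotient of both group values, with no pseudocount. In bulk RNA, fewer cells of a type and less RNA per cell cannot be told apart.

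Sp5 itself stood at 0.769 FPKM in the minus group and 126 FPKM in the plus group, the direction the labels state. The ES cell factor Pou5f1 was at 999 and 1058 FPKM, and of 9 tested ES cell and epiblast genes 2 rose, Nanog the more, and 4 fell, among them Fgf5, Pou3f1 and Utf1. Marker lists for cells that also use guidance genes moved as follows in the authors' deposited table. Of all tested rows there, 10.5% rose and 12.7% fell. Of 7 tested neural progenitor genes 1 rose and 5 fell, Fabp7, Pax6, Nes and Sox3 among the latter, and the summed level of the 7 genes went from 31.4 to 12.8 FPKM. Neuron genes split, with 3 higher (Rbfox3 and Nefl at 1 FPKM or more) and 2 lower (Elavl3 by 2.00-fold) of 11 tested, and their sum was 84.8 and 92.2 FPKM. Endothelial genes also split, 4 higher (Esam, Pecam1 and Sox18 among them) and 4 lower (Etv2 the most) of 10 tested, with sums of 12.3 and 17.1 FPKM. Emcn, another endothelial marker, was not tested, at 0.00774 FPKM without doxycycline and listed at 0 with it. Fibroblast genes had 2 higher (Col1a1 the larger) and 5 lower of 14 tested, Acta2 falling the most, from 18.9 to 9.92 FPKM, with sums of 72.9 and 53.6 FPKM. Neural crest genes had 2 higher, Tfap2a among them, and 1 lower (Foxd3) of 7 tested, with sums of 28.7 and 19.1 FPKM. These sums are mostly Foxd3, at 26.1 and 13.65 FPKM, whereas Tfap2a rose from 0.180 to 2.50 FPKM. Extraembryonic endoderm genes had 6 lower and none higher of 10 tested, with Sox7, Lama1, Gata6 and Afp among the falls. Their sums were 398 and 322 FPKM and include Dab2, which was not tested, at 85.2 and 56.6 FPKM. Primitive streak genes had 7 higher and none lower of 12 tested, led by T, Evx1, Mesp1 and Wnt3, with sums of 29.7 and 172 FPKM. What part these cell types have in the guidance results was not tested.

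Guidance genes changed in both directions. Of the 68 genes, 61 were tested; 20 rose and 16 fell in the authors' deposited table, a called share of 59.0% beside 23.2% of all tested rows. Rises made up 32.8% of the tested guidance genes beside 10.5% of all tested rows, and falls 26.2% beside 12.7%. The ephrin system had 9 rises and 3 falls among 20 tested genes. The Slit and netrin systems had 6 rises and 2 falls among 14. The semaphorin system had 5 rises and 11 falls among 27. The median log2 fold change was 0.31 for ephrin-system genes, 0.46 for Slit and netrin genes and -0.16 for semaphorin-system genes, with 0.07 over the 61 genes and -0.03 over all tested rows. Over the 41 tested guidance genes that reached 1 FPKM in either group the median had the opposite sign, at -0.01, beside -0.04 over all tested rows at that level. No test of the difference between families was made.

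**Figure D1:**
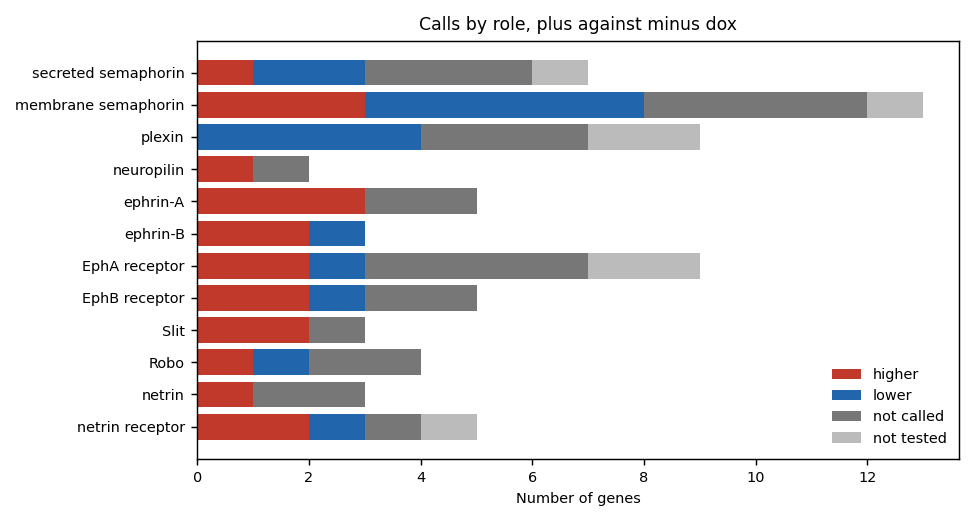
Number of genes by role (horizontal axis, genes) that were higher, lower, not called or not tested with doxycycline in the authors' deposited table. Plexins hold 4 falls and no rise, whereas ephrin-A genes hold 3 rises and no fall.

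Level bears on these counts. Of the 68 genes, 42 reached 1 FPKM in at least 1 group and 26 did not. Among the 41 tested genes at 1 FPKM or more, 14 rose and 12 fell. Of all tested rows at that level 28.3% were called, 11.5% higher and 16.8% lower. The other 10 calls were of genes under 1 FPKM in both groups. Of the 61 tested guidance genes, 11 rose and 3 fell by 2-fold or more. Of all 18537 tested rows, 656 (3.54%) rose and 412 (2.22%) fell by as much. Sema3d, Slit1, Slit2 and Unc5c among these guidance rises, and Unc5a among the falls, were under 1 FPKM in both groups. Many calls were of small changes: 14 of the 36 called genes moved by less than 1.5-fold, among them Robo1, Plxna1, Plxnb1, Sema4b, Unc5b, Ephb2, Ephb1 and Efnb2.

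**Figure D2:**
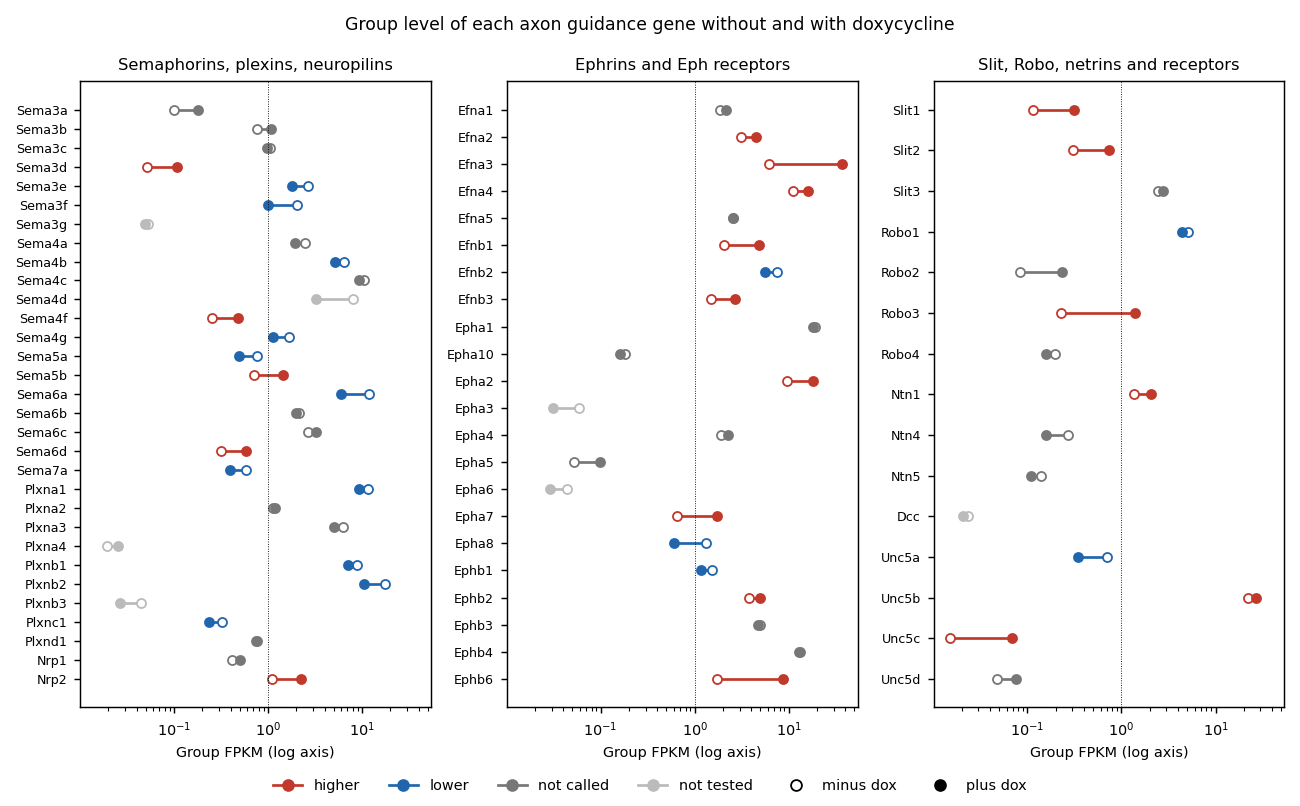
Group level of each of the 68 genes in FPKM on a log axis, without doxycycline (open points) and with it (filled points), coloured by call in the authors' deposited table; the dotted line marks 1 FPKM. Efna3 moves farthest to the right among well-expressed genes, from 6.15 to 36.6 FPKM, while Plxnb2 and Sema6a move to the left.

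The ephrin-A ligands, which are tethered to the membrane by a lipid anchor and bind mainly EphA receptors, held the largest rise by level. The group values of Efna3 were 6.15 FPKM in untreated and 36.6 FPKM in treated cells. In the authors' deposited table this 5.94-fold rise has a log2 fold change of 2.57 and a q printed as 0, below the smallest value the table shows. It moved from rank 15 by level among the 68 genes to rank 1. Its row spans chromosome 3, positions 89117821 to 89126887 of mm9. Gm15998 lies within that span and was at 0.255 and 0.638 FPKM, so some reads may be shared between them. Efna3 made up 24.9% of the summed FPKM of the 5 ephrin-A genes without doxycycline and 59.3% with it.

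Efna3 sits between 2 other ephrin-A genes. Efna4, 10424 bases from it, rose from 11.1 to 15.9 FPKM (1.44-fold, q = 9.93e-06 in the authors' deposited table). The row of Efna4 shares its locus with Adam15, a metalloproteinase gene at 16.2 and 18.8 FPKM, and reads of the pair may not be separable. Efna1, 32756 bases away on the other side, was at 1.85 and 2.14 FPKM and was not called (q = 0.401 in the authors' deposited table). The 3 neighbouring ligand genes thus had folds of 5.94, 1.44 and 1.15. Within 100 kb of Efna3, 18 other rows were tested, of which 2 rose (Efna4 and Gm15998), 4 fell (Krtcap2, Trim46, Slc50a1 and Cks1b) and 12 were not called.

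The remaining ephrin-A genes lie on other chromosomes. Efna2 rose from 3.10 to 4.51 FPKM (1.45-fold, q = 1.33e-05 in the authors' deposited table). Efna5, a ligand known from the mapping of retinal axons, was at 2.55 and 2.53 FPKM and was not called. Summed over the 5 genes, ephrin-A expression went from 24.7 to 61.7 FPKM.

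Ephrin-B ligands cross the membrane, bind mainly EphB receptors and signal back into their own cell through a cytoplasmic tail. The 3 genes moved apart. Efnb1 rose from 2.05 to 4.86 FPKM (2.37-fold; chromosome X, 96331469 to 96344330; q given as 0 in the authors' deposited table). Efnb3 rose from 1.48 to 2.65 FPKM (1.80-fold, q = 3.53e-11 in the authors' deposited table). Efnb2, a ligand of somite boundaries and arterial endothelium, fell from 7.44 to 5.56 FPKM (1.34-fold, q = 2.61e-06 in the authors' deposited table). Efnb2 was the most abundant of the 3 in each group, but its share of their summed FPKM went from 67.8% to 42.5% while that of Efnb1 went from 18.7% to 37.2%.

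**Figure D3:**
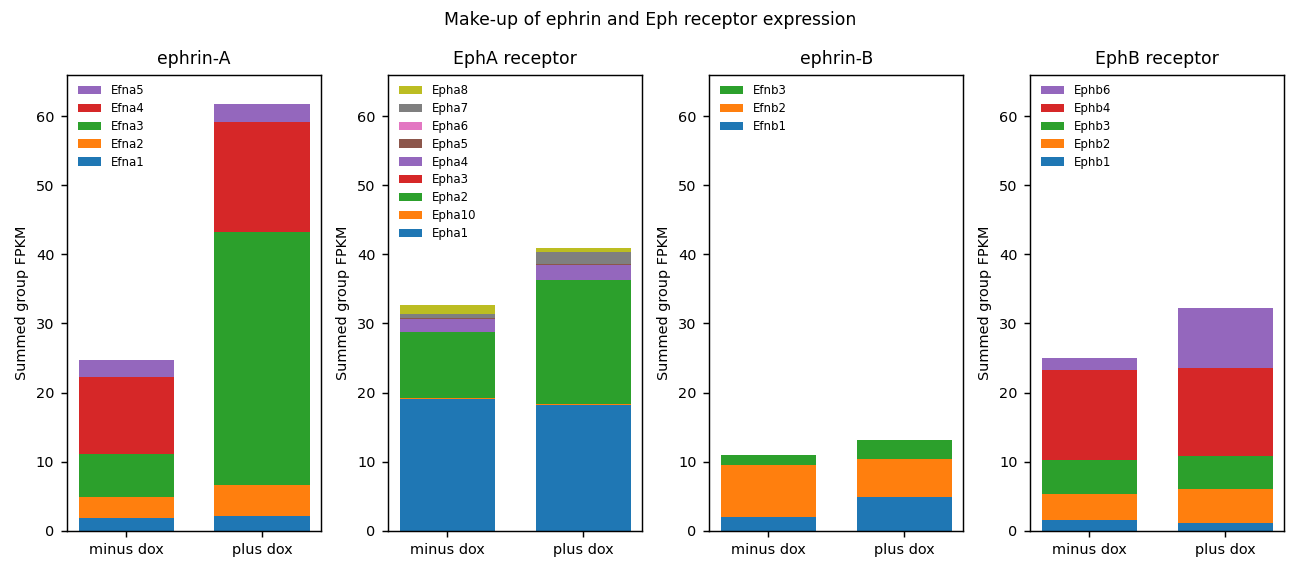
Group FPKM of ephrin and Eph receptor genes stacked within each class, without and with doxycycline; the vertical axis is the summed FPKM and each colour is 1 gene. The ephrin-A column grows from 24.7 to 61.7 FPKM, mostly through Efna3, and Ephb6 widens from 1.74 to 8.66 FPKM in the EphB column.

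Among EphA receptors, which are receptor tyrosine kinases, Epha1 and Epha2 held most of the expression. Epha2, found on epithelial cells and in the gastrulating embryo, rose from 9.53 to 17.9 FPKM (1.88-fold, q given as 0 in the authors' deposited table). Epha1 was at 19.0 and 18.2 FPKM and was not called (q = 0.733 in the authors' deposited table). The level of Epha1 was above that of Epha2 without doxycycline, and with it the levels were close, 18.2 and 17.9 FPKM.

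The less abundant EphA receptors went both ways. Epha7 rose from 0.648 to 1.72 FPKM (2.65-fold, q = 2.73e-06 in the authors' deposited table). Epha8 fell from 1.31 to 0.609 FPKM (2.15-fold; chromosome 4, 136485334 to 136512731; q given as 0 in the authors' deposited table). Its fall was the largest in fold among the 16 guidance genes that fell, but with 1 FPKM added to both group values its log2 fold change was -0.52, beside -0.87 for Sema6a. Epha4, which binds ephrins of both classes, was at 1.90 and 2.25 FPKM and lay just outside the threshold (q = 0.0504 in the authors' deposited table). Epha10 (0.181 and 0.162 FPKM) and Epha5 (0.0517 and 0.0989 FPKM) were not called. Epha3 (0.0585 and 0.0312 FPKM) and Epha6 (0.0443 and 0.0290 FPKM) were too low to enter the authors' test.

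Among EphB receptors the change was mainly that of Ephb6. Ephb6, an Eph receptor without kinase activity, rose from 1.74 to 8.66 FPKM (4.96-fold; chromosome 6, 41555481 to 41570508; q given as 0 in the authors' deposited table). It went from rank 30 to rank 10 among the 68 genes, and from 6.96% to 26.9% of the summed FPKM of the EphB genes. Of 4 other tested rows within 100 kb, 3 rose as well, beside 10.5% of all tested rows. All 3 were at low levels with doxycycline: Trpv6 (0.311 FPKM), Trpv5 (0.112 FPKM) and 1700034O15Rik (0.0747 FPKM, listed at 0 without the drug). Trbc2 was not called. Within the same distance, 1 of 8 rows near Sema3f fell, and 1 of 3 near Sema5b and 1 of 4 near Epha8 rose. Near Efnb1 (1 row) and Nrp2 (2 rows) none was called. Ephb2 rose from 3.78 to 4.90 FPKM (1.30-fold, q = 0.0129 in the authors' deposited table) and Ephb1 fell from 1.53 to 1.16 FPKM (1.32-fold, q = 0.00751 in the same authors' deposited table). Ephb4, the receptor of ephrin-B2 on veins, was the most abundant EphB gene at 13.0 and 12.7 FPKM, and Ephb3 was at 4.98 and 4.75 FPKM; neither was called.

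In the ephrin system as a whole, 6 of 8 tested ligands (75%) and 6 of 12 tested receptors (50%) were called in the authors' deposited table. Of all tested rows 23.2% were called, and 28.3% of those at 1 FPKM or more. Summed ligand levels went from 35.7 to 74.8 FPKM and summed receptor levels from 57.8 to 73.1 FPKM.

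In the semaphorin system the receptors that changed were mostly lower. Plexins are large membrane proteins whose cytoplasmic part switches off small GTPases of the Ras and Rap families when a semaphorin binds. Plxnb2, the most abundant plexin gene and a receptor of Sema4c, fell from 17.6 to 10.6 FPKM (1.66-fold, q = 1.42e-06 in the authors' deposited table). Plxnb1, the receptor of Sema4d, fell from 8.91 to 7.09 FPKM (1.26-fold, q = 2.01e-05 in the authors' deposited table). Plxna1, a partner of neuropilins, fell from 11.7 to 9.41 FPKM (1.24-fold, q = 2.2e-05 in the authors' deposited table). Plxnc1, a receptor of Sema7a that was low in both groups, fell from 0.322 to 0.237 FPKM.

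Of 7 tested plexin genes 4 fell and none rose in the authors' deposited table, where 12.7% of all tested rows fell and 10.5% rose. Plxna3 was at 6.25 and 4.99 FPKM, a ratio close to that of Plxna1, but was not called (q = 0.191 in the authors' deposited table). Plxna2 at 1.13 and 1.18 FPKM and Plxnd1 at 0.754 and 0.774 FPKM were not called either. Plxna4 (0.0195 and 0.0254 FPKM) and Plxnb3 (0.0447 and 0.0264 FPKM) were not tested. The summed FPKM of the 9 plexin genes was 46.7 without doxycycline and 34.4 with it.

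Neuropilins are the co-receptors that bind secreted semaphorins and also VEGF. Nrp2, the main co-receptor of Sema3f, rose from 1.10 to 2.24 FPKM (2.04-fold, q = 3.68e-14 in the authors' deposited table). Nrp1, the co-receptor of Sema3a, was at 0.412 and 0.5002 FPKM and was not called (q = 0.186 in the authors' deposited table).

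Secreted class 3 semaphorins were low, at most 2.68 FPKM, and the 2 most abundant genes fell. Sema3f fell from 2.02 to 0.993 FPKM (2.04-fold; chromosome 9, 107583833 to 107612806; q = 1.37e-09 in the authors' deposited table). Sema3e, which can bind plexin-D1 without a neuropilin, fell from 2.68 to 1.82 FPKM (1.47-fold, q = 7.37e-07 in the authors' deposited table). Sema3f and its co-receptor gene Nrp2 thus moved in opposite directions, each 2.04-fold. Sema3b, 72272 bases from Sema3f, was at 0.760 and 1.07 FPKM and was not called (q = 0.0725 in the authors' deposited table). Sema3c at 1.04 and 0.984 FPKM was not called. Sema3d rose 2.08-fold, from 0.0516 to 0.107 FPKM. Sema3a was at 0.101 and 0.182 FPKM without a call, and Sema3g, at 0.0528 FPKM or less, was not tested.

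Membrane-bound semaphorins, which act at cell contacts, were the more abundant ligands. Sema6a, a transmembrane ligand of A-type plexins and the most abundant semaphorin gene without doxycycline, fell from 11.8 to 6.00 FPKM (1.97-fold, q = 2.96e-14 in the authors' deposited table). Sema4c, at 10.5 and 9.37 FPKM, was not called and became the most abundant with doxycycline. Sema4b fell from 6.38 to 5.14 FPKM (1.24-fold) and Sema4g from 1.67 to 1.13 FPKM (1.47-fold). Under 1 FPKM, Sema5a fell from 0.757 to 0.488 FPKM and Sema7a, a lipid-anchored semaphorin, from 0.582 to 0.393 FPKM.

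Rises among membrane-bound semaphorins were those of genes at low levels. Sema5b rose from 0.708 to 1.45 FPKM (2.05-fold, q = 0.000481 in the authors' deposited table). Sema4f rose from 0.253 to 0.475 FPKM and Sema6d from 0.320 to 0.578 FPKM. Sema5a and Sema5b, the paralogs of class 5, and Sema6a and Sema6d of class 6 therefore went opposite ways. Sema4a (2.45 and 1.96 FPKM), Sema6b (2.12 and 2.00 FPKM) and Sema6c (2.64 and 3.22 FPKM) were not called.

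Sema4d, the ligand of plexin-B1 known from immune cells and axons, was not tested. Its group values were 8.03 FPKM without doxycycline and 3.25 FPKM with it, but the row had status FAIL, which Cuffdiff gives when a numerical problem stops a test. No fold or call is therefore given, and the summed level of the membrane-bound semaphorins, 48.2 and 35.5 FPKM, includes this gene.

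**Figure D4:**
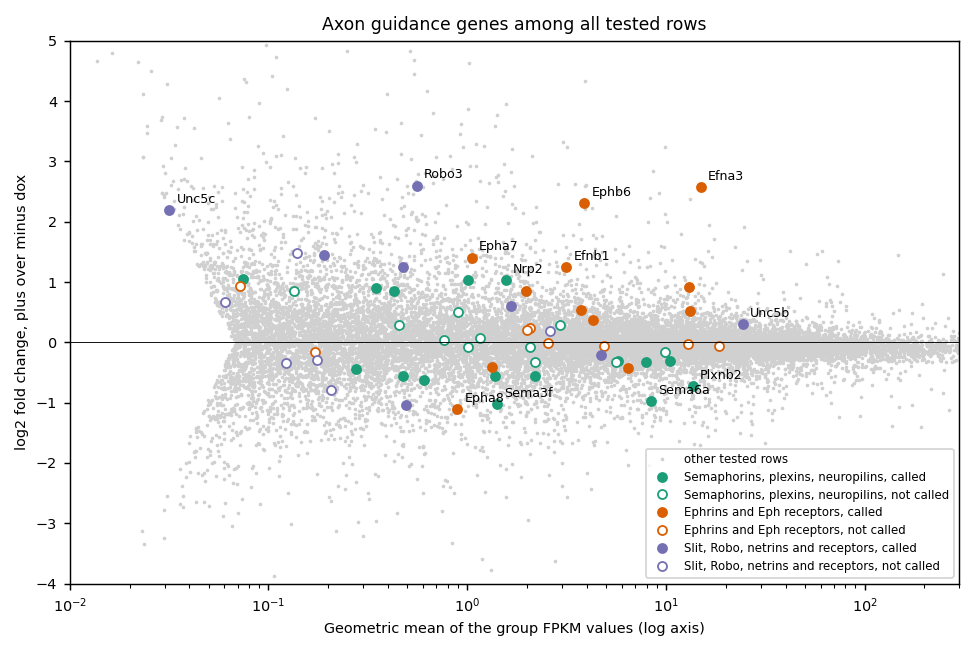
Log2 fold change with doxycycline (vertical axis) against the geometric mean of both group values in FPKM (log axis), with grey points for other tested rows within the axis limits and coloured points for the guidance genes, filled where called. Most filled ephrin-system points (orange) at 1 FPKM and more lie above 0, with Efna3 and Ephb6 highest, while most filled semaphorin-system points (green) at that level lie below 0.

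Slit ligands are large secreted repellents. Slit3 was the most abundant at 2.46 and 2.78 FPKM and was not called (q = 0.21 in the authors' deposited table). Slit2 rose from 0.308 to 0.731 FPKM (2.38-fold) and Slit1 from 0.115 to 0.315 FPKM (2.74-fold). The rises were thus in the genes that stayed under 1 FPKM.

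Robo receptors are membrane proteins of the immunoglobulin superfamily. Robo1, the main Slit receptor of the set by level, fell from 5.07 to 4.37 FPKM (1.16-fold, q = 0.0204 in the authors' deposited table). Robo3, the divergent family member needed for commissural axons to cross the midline, rose from 0.227 to 1.38 FPKM (6.06-fold; chromosome 9, 37223254 to 37240760; q = 3.34e-06 in the authors' deposited table). That was the largest fold among the 20 guidance genes that rose, but it starts from 0.227 FPKM. With 1 FPKM added to both group values, the log2 fold change of Robo3 went from 2.60 to 0.95, below those of Efna3 at 2.39 and Ephb6 at 1.82. Robo4, a Robo of endothelial cells that lies 1645 bases from Robo3, was at 0.195 and 0.159 FPKM and was not called (q = 0.728 in the authors' deposited table). Within 100 kb of Robo3, BC024479 rose from 15.6 to 18.5 FPKM, and Ccdc15 and Robo4 were not called. Esam, counted above among the endothelial genes, also lies there and rose from 0.728 to 6.16 FPKM (8.47-fold). Robo2 was at 0.0833 and 0.233 FPKM without a call.

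Netrins are laminin-related secreted cues. Ntn1, the founding member in vertebrates, rose from 1.35 to 2.05 FPKM (1.52-fold, q = 5.79e-05 in the authors' deposited table). Ntn4 (0.270 and 0.157 FPKM) and Ntn5 (0.138 and 0.109 FPKM) were not called. The row shared by Ntn3 and Tbc1d24 was at 2.00 and 3.57 FPKM and was called higher in the authors' deposited table, but its genes cannot be told apart.

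Netrin receptors were nearly all Unc5b, a receptor for repulsion that also acts in blood vessels. Unc5b was the most abundant of the 68 genes without doxycycline and rose from 22.0 to 27.2 FPKM (1.23-fold, q = 3.15e-05 in the authors' deposited table). It made up 96.5% and 98.2% of the summed FPKM of the 5 netrin receptor genes. Unc5a fell from 0.708 to 0.344 FPKM (2.06-fold) and Unc5c rose from 0.0148 to 0.0677 FPKM, the lowest level of any called guidance gene. Unc5d was at 0.0478 and 0.0764 FPKM without a call. Dcc, the receptor for attraction, was at 0.0231 and 0.0205 FPKM and was not tested.

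Promoter sequences were examined because Sp factors, Sp5 included, bind GC-rich boxes. RefSeq promoter windows on build GRCm38.p6, 250 bases before to 50 after each annotated start, were matched by symbol to 58 of the 68 genes and gave 74 windows. Promoter coordinates are given on that build and not on mm9. The GC box GGGCGG, searched on both strands, was found in 52 of the 74 windows (70.3%), beside 59.1% of 13559 windows of tested genes and 35.7% of all 32851 windows. Base composition differed too, with a median GC content of 64.2% in the windows of guidance genes, 60.3% in those of tested genes and 52.7% in all. The box was present in 12 of 20 windows of genes that rose and in 13 of 15 windows of genes that fell, beside 61.9% and 64.9% of the windows of all genes that rose and fell. Another box of the family, GGTGTGG, was in 5 of the 74 windows, beside 7.58% of windows of tested genes and 7.58% of all. The Tcf/Lef motif CTTTGAT was in 1 of the 74, that of Nrp2, beside 2.62% of windows of tested genes and 3.73% of all. These are matches of letters and do not show binding.

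The 250 bases before the annotated start are shown for the 3 genes with the largest rises at 1 FPKM or more, Robo3, Efna3 (which has 2 annotated starts) and Ephb6, and for the largest fall, Epha8. They are written 5′ to 3′ on the strand of the gene, with GC boxes on either strand in capitals, and were chosen after the values were seen. The windows are chr3:89321769-89322018 and chr3:89322940-89323189 for Efna3, chr9:37433176-37433425 for Robo3 and chr4:136956817-136957066 for Epha8, on the minus strand, and chr6:41605261-41605510 for Ephb6 on the plus strand.
Efna3, downstream start: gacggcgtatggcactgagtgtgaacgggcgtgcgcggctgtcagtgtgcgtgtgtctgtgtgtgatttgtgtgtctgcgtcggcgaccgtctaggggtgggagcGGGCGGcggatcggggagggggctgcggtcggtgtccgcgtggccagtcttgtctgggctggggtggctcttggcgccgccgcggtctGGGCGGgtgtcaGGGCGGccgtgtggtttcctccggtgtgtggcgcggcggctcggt
Efna3, upstream start: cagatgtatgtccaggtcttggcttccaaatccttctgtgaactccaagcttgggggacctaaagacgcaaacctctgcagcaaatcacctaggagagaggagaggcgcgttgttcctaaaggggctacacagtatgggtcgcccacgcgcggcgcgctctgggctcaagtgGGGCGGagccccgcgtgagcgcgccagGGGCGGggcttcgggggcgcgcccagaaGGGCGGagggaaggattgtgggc
Ephb6: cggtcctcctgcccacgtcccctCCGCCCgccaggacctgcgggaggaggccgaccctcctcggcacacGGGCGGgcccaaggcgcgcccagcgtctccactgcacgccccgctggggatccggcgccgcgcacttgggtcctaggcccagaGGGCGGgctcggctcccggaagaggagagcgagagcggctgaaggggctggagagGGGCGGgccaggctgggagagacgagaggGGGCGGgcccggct
Robo3: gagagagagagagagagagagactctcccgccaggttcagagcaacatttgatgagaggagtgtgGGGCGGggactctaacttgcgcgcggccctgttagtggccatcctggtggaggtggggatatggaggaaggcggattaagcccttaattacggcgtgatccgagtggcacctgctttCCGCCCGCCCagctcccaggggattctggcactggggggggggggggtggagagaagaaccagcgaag
Epha8: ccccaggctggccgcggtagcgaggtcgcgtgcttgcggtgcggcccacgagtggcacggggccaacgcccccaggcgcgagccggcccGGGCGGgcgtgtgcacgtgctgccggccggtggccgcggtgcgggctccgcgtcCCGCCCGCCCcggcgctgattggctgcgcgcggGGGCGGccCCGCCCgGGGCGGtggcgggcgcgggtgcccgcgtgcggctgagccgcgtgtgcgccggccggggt
The windows hold 3 GC boxes at each start of Efna3, 5 at Ephb6, 3 at Robo3 and 6 at Epha8, counting both matches where 2 overlap. The window of Epha8, the gene that fell, is 84.3% GC over its 300 bases. Counted by gene, a GC box was in at least 1 window of 10 of the 17 matched genes that rose and 11 of the 13 that fell, a difference that was not tested. The called genes without a box were Efna4, Efnb1, Ephb2, Sema3d, Sema4f, Sema5b and Unc5c among the rises, and Ephb1 and Robo1 among the falls.

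Genes that work with these receptors also went both ways. Of 86 tested rows of pathway genes, 16 rose and 15 fell in the authors' deposited table, 36.0% beside 23.2% of all tested rows, with a median log2 fold change of -0.06. Co-receptors and other cues had 8 rises and 3 falls among 22 tested. Rgma and Rgmb, which encode repulsive guidance molecules that also act as BMP co-receptors, rose from 0.989 to 2.88 FPKM (2.91-fold) and from 2.01 to 4.61 FPKM (2.30-fold). Their receptor gene Neo1, a relative of Dcc named after its values were seen, rose from 4.23 to 6.16 FPKM (1.46-fold, q = 1.46e-11 in the authors' deposited table). Neo1 was thus far above Dcc in level in each group. Lingo1 rose 1.62-fold to 1.06 FPKM, and the adhesion gene Cntn2 fell 1.58-fold from 1.13 FPKM.

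The intracellular transducers had 8 rises and 12 falls among 64 tested, 31.2% beside 23.2% of all tested rows. At 1 FPKM or more 15 of 53 were called, 28.3%, the same share as of all tested rows at that level. Farp1, an exchange factor linked to A-type plexins, fell from 4.34 to 1.52 FPKM (2.86-fold, q given as 0 in the authors' deposited table). Mical1, a flavoprotein that takes actin filaments apart downstream of plexins, fell from 11.05 to 5.48 FPKM (2.01-fold). The exchange factors Trio, which acts in netrin signalling, and Arhgef11, which binds B-type plexins, fell 1.76-fold and 1.64-fold. Collapsin response mediators, which relay semaphorin signals to microtubules, split: Crmp1 fell from 29.6 to 19.5 FPKM and Dpysl5 from 12.03 to 8.02 FPKM, while Dpysl3 rose from 8.11 to 13.6 FPKM. The shared GTPases Rac1 (81.9 and 72.4 FPKM), Rhoa (121 and 116 FPKM) and Cdc42 (174 and 160 FPKM) had no call; these 3 were picked with their values in view.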

How the data were processed

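The 6 poly(A)-selected RNA-seq libraries were grouped by their titles. The submitters' processing notes name Cuffdiff, Cufflinks 2.0.2, TopHat2 2.0.8, Picard and Bowtie, and the build mm9; for annotation, library scaling and filters the sources used here give nothing. The authors deposited 1 table with an FPKM value per group, which combines its libraries, and a log2 fold change, p-value and q-value per gene. Without counts the depth is unknown, so neither a counting interval nor a detection floor is given.

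For tested rows with nonzero values in both groups, the deposited log2 fold changes equalled the log2 ratio of these values to within 1.31e-05. The q-values equalled p-values adjusted by Benjamini-Hochberg over 18537 tested rows to within 1.79e-06. Rows marked significant were those with status OK and q under 0.05, without exception. Starts are written from 1. Ratios, counts and sums were computed with Python 3.11.15 and pandas 2.3.3. The adjustment was tested on simulated p-values, and the motif search on a made-up sequence with planted GC boxes. The genes and lists were chosen with earlier results of these data known. All 68 guidance genes are named. Of pathway and marker genes, those called at 1 FPKM or more with a fold of at least 1.5 were named by largest fold. Up to 12 pathway genes and up to 4 genes per marker list were named so. Pou5f1, Emcn, Dab2, Neo1, Rac1, Rhoa and Cdc42 were named outside that rule with their values known. Of 96 pathway genes, 92 had a row. Strand was not marked as far as the protocol says. Of the 68 rows, 26 overlap another row, 14 of them called, and of these 14 only Efna4 and Ephb1 overlap a row that reaches 1 FPKM. Alternatives tried were a stricter q, a minimum level, a minimum fold, new adjustment at 1 FPKM or more, leaving out overlapping rows, pseudocounts of 1 and 0.1 FPKM, and centring.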

Additional observations from a re-analysis of the deposited data

How the results depend on the processing

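No paired analysis was possible because the table holds 1 value per group, and for the same reason no library could be left out. The share of all tested rows called was not computed for a smaller q or a minimum fold of 1.5. Nor was it computed for new adjustment of p-values or the leaving out of rows. Whether the guidance genes exceed that share at those settings was therefore not examined. At q under 0.01, 19 guidance genes were higher and 14 lower. A minimum fold of 1.5 left 16 higher and 6 lower, with 9 semaphorin-system, 7 ephrin-system and 6 Slit and netrin genes called, and 16 pathway genes; semaphorin-system calls then stood at 5 higher and 4 lower, so the excess of falls there rests on changes under 1.5-fold. Leaving out rows that share a locus left 12 higher and 10 lower, with 10, 8 and 4 genes called in these systems and 17 pathway genes. Limiting the count to 1 FPKM or more left 10 semaphorin-system and 4 Slit and netrin genes called, and so did new adjustment of p-values at that level. The median log2 fold change of the tested guidance genes, 0.07, was -0.0114 among those at 1 FPKM or more. New adjustment took ephrin-system calls from 12 to 13, with 10 higher. Leaving out rows or asking for a minimum level, fold or smaller q can only lower a count, by construction. A pseudocount cannot change the direction of a fold, by construction. Centring on a median of -0.04 could not do so for the 36 called genes either. Their smallest log2 fold change was -0.21, that of Robo1. These settings are therefore no check of direction. A pseudocount of 1 FPKM moved 14 of 61 fold changes by over 1.5-fold, since it shrinks the change of low genes.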
